A study of Homo sapiens with 3 samples.

Results

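The 10 genes examined encode NPM1 (nucleophosmin), NCL (nucleolin) and 8 proteins of small nucleolar ribonucleoproteins (snoRNPs). They are FBL, NOP56 and NOP58 of the box C/D particles, DKC1, NHP2, GAR1 and NOP10 of the box H/ACA particles, and SNU13, which box C/D particles share with the spliceosome. These genes were picked by name from 59716 genes of the RefSeq table, of which 20050 are protein-coding, after peak numbers of the lists were known. Their values are therefore a description, with no test. A peak was given to a gene when its summit, the highest base of the peak, lay within the gene's GRCh38 bounds. Within the 10 genes lay 30 of the 154000 summits of the RPL22 list and 98 of the 254413 summits of the RPL22L1 list.

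The lists come from the established colorectal carcinoma line HCT116, of human origin, in which RNA bound to a HaloTag fusion was recovered by GoldCLIP-seq. In this form of crosslinking and pull-down the tag holds the protein covalently on beads. There was 1 library of cells with RPL22-HaloTag, a large-subunit ribosomal protein, and 1 of cells with RPL22L1-HaloTag, its paralog. The library of cells with HaloTag alone was not analysed here, so no background signal stands beside any value. The labels do not give the promoter of the fusions, the number of clones or whether the endogenous proteins were kept. Replicates and read depths were lacking, so no test was made, and values describe these 2 libraries. Exact Clopper-Pearson 95% intervals cover counting error only. Of 7 colon epithelial marker genes 6 held a summit in each list, all but KRT20, and of 3 fibroblast genes 1 did, COL1A1. Since 68.2% and 69.7% of all protein-coding genes held a summit for RPL22 and RPL22L1, these counts say little about the cell type.

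Small nucleolar RNAs guide the chemical modification of ribosomal RNA. Box C/D RNAs bring FBL, the methyltransferase, to the nucleotide to be modified, on a frame of NOP56, NOP58 and SNU13. Box H/ACA RNAs bring DKC1, the pseudouridine synthase, with NHP2, NOP10 and GAR1. In human cells most of these RNAs are cut from introns of other genes, and several of those hosts encode nucleolar proteins, NCL, NOP56, NOP58 and DKC1 among them. A host gene can therefore hold signal from the small RNA inside it, from its own pre-mRNA and from its mRNA. For this reason summits inside a snoRNA gene were kept apart from the rest.

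The 10 genes differed widely in where their peaks lay. NPM1 held 32 summits in the RPL22L1 list and none in the RPL22 list. NCL and NOP56 held summits inside snoRNA genes and nowhere else. DKC1 held RPL22 summits inside snoRNA genes alone but RPL22L1 summits elsewhere too. FBL, NOP58, NHP2, GAR1, NOP10 and SNU13 held summits of both lists outside snoRNA genes, and each of these 6 had at least 1 place where a peak of one list overlapped a peak of the other.

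**Figure D1:**
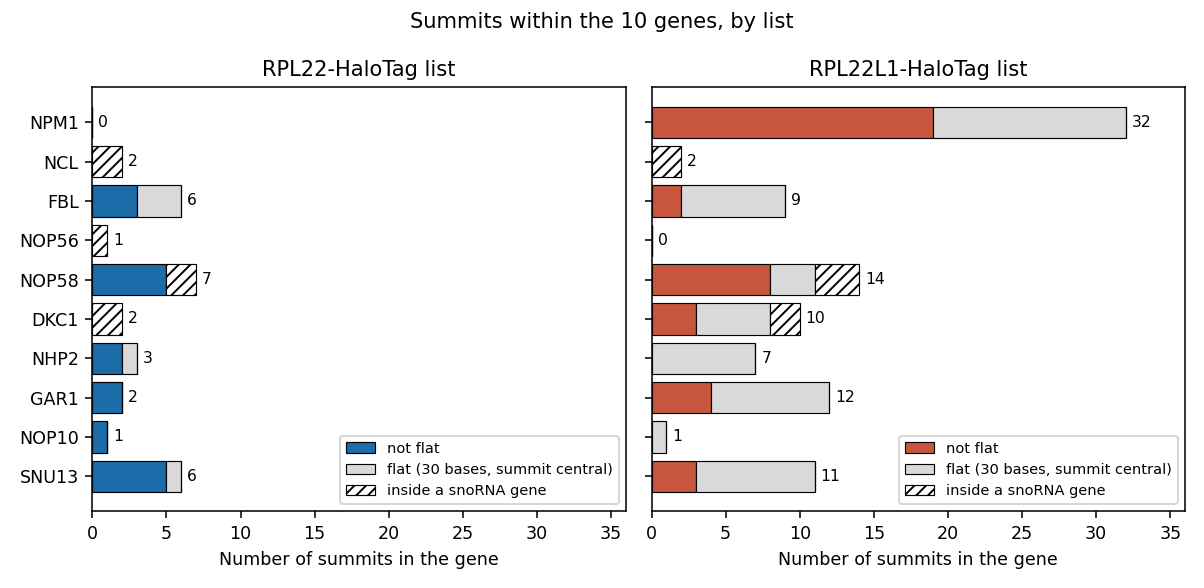
Number of summits in each of the 10 genes in the RPL22-HaloTag list (left) and the RPL22L1-HaloTag list (right), split into peaks that are not flat, flat peaks (30 bases wide with the summit at offset 15) and peaks inside a snoRNA gene. NPM1 stands at 0 and 32, and the bars of NCL hold summits inside snoRNA genes only.

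The sequences that could be read were those of peaks lying in a RefSeq promoter window or in an annotated microRNA. The first shows SNORA36A, a box H/ACA snoRNA within DKC1, whose 3′ part is also annotated as the hairpin of MIR664B. The hairpin spans chrX:154768596-154768656 on the plus strand. The RPL22 peak at chrX:154768627-154768658 and the RPL22L1 peak at chrX:154768626-154768658 had their summits on the same base. Both peaks covered the whole of miR-664b-3p, and the summit lay on base 10 of its 22. Capitals mark the bases of the RPL22 peak in the hairpin and the seed, bases 2 to 8, in the mature microRNA.

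MIR664B hairpin: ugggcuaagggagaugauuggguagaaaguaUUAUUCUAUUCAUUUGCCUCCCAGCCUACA
hsa-miR-664b-3p: uUCAUUUGccucccagccuaca

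The hairpin ends in ACA, and 3 bases separate that ACA from the annotated end of SNORA36A, the spacing that is typical of the ACA box of this snoRNA class. The peaks thus sat on the 3′ end of the snoRNA, and signal of the snoRNA and of the microRNA cannot be told apart in it. The related genes SNORA36B and SNORA36C each held 1 summit in both lists as well. How reads that match several copies were placed is not given in the sources used here.

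The next sequences show peaks at the very start of 3 genes. In GAR1, on chromosome 4, an RPL22 peak at chr4:109815531-109815560 and an RPL22L1 peak at chr4:109815517-109815546 shared 16 bases, which are in capitals. In DKC1 an RPL22L1 peak at chrX:154762872-154762901 is in capitals within the first 50 bases of the gene, chrX:154762864-154762913. In FBL, on the minus strand, the first 50 bases are chr19:39846330-39846379, and capitals mark the 21 bases that belong to the RPL22 peak at chr19:39846286-39846350. Sequences are written on the strand of the gene and come from RefSeq on GRCh38.p14.

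GAR1, RPL22 peak: ACGGCTCAGCGTCAGGcaagttggcctctc
GAR1, RPL22L1 peak: tatacgtcacttccACGGCTCAGCGTCAGG
DKC1, first bases: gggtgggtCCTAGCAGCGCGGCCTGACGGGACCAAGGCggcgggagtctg
FBL, first bases: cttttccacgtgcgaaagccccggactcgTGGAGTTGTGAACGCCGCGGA

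These stretches were rich in G and C, at 63.3% for the GAR1 RPL22 peak, 56.7% for its RPL22L1 peak, 74% for the DKC1 stretch and 62% for the FBL stretch. The promoter table held 8 of the 10 genes and gave their strand. NOP58 and SNU13 were not in it, and their positions are counted from the end with the lower coordinate. The gene table has no exons, so no peak is called exonic or intronic.

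Peaks inside the snoRNA genes were the highest of the set in the RPL22L1 list. In the RPL22 list they were too, except that a NOP58 peak outside snoRNA genes, of rank 273, stood above that of SNORD70. The 10 genes hold 14 annotated snoRNA genes, of which 7 had an RPL22 summit, 7 had an RPL22L1 summit, 6 had both and 6 had neither. Over all 1199 snoRNA genes the shares with a summit were 11.6% for RPL22 and 15.7% for RPL22L1. Peaks were ranked by the authors' score within their own list, and rank 1 is the highest. The ranks of these peaks ran from 18 to 601 for RPL22 and from 54 to 904 for RPL22L1.

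SNORD20, a box C/D snoRNA of NCL, had the highest peak of the set in both lists. Its RPL22 peak at chr2:231456438-231456475 had a score of 173395 and rank 18. Its RPL22L1 peak at chr2:231456438-231456523 had a score of 132250 and rank 54. Both summits lay on the same base, 8 bases from the 3′ end of the snoRNA on the strand of NCL. The RPL22L1 peak spanned 86 bases and the whole snoRNA, while the RPL22 peak spanned 38 bases at its 3′ end.

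SNORA75, the H/ACA snoRNA of NCL, had rank 72 for RPL22 and rank 90 for RPL22L1, again with the summit on one base, 5 bases from the 3′ end. Both peaks ran past that end, by 9 and 10 bases. The third snoRNA of NCL, SNORD82, held no peak in either list. Outside these snoRNAs NCL, 11 kb long on chromosome 2, held no summit in either list. NCL is 1 of 4 genes of the set without an RPL22 summit outside snoRNA genes and 1 of 2 without an RPL22L1 summit there.

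In DKC1 the SNORA36A peaks had rank 80 for RPL22 and rank 102 for RPL22L1. SNORA56 had rank 196, with the peak at chrX:154775093-154775126, and rank 246, with the peak at chrX:154775093-154775125. Its summits lay 15 and 10 bases from the 3′ end.

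In NOP58 the peaks of SNORD70 and SNORD70B were also found in both lists, each pair with its summits on one base. SNORD70 had rank 601 for RPL22 and rank 904 for RPL22L1, and SNORD70B had rank 214 and rank 253. SNORD11B had an RPL22L1 peak at chr2:202291392-202291427 with a score of 41267 and rank 108, and no RPL22 peak. SNORD11, the fourth snoRNA of the gene, held none.

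NOP56 hosts 5 snoRNAs, and 1 of them held a peak. SNORD57 had an RPL22 peak at chr20:2656986-2657016 with a score of 12992 and rank 135. The RPL22L1 list had no summit anywhere in NOP56, which is 5.76 kb long. SNORD110, SNORA51, SNORD86 and SNORD56 held no peak in either list, and neither did the microRNA MIR1292.

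SNORD57 and SNORD11B were thus the 2 snoRNAs of the set with a peak in 1 list only. With 1 library behind each list, this difference was not tested. Of the 6 snoRNA genes with peaks in both lists, the summits shared a base in 5, and in SNORA56 they lay 5 bases apart.

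The summits in snoRNAs had a similar position, near an end of the snoRNA gene. In NCL, NOP56 and DKC1, whose strand is known, all 5 RPL22 summits and all 4 RPL22L1 summits lay nearer the 3′ end than the 5′ end, 5 to 15 bases from it. In NOP58 the 5 summits lay 18 to 26 bases from the end with the higher coordinate. This position is general in both lists. Among all snoRNA genes with a summit inside a host of known strand, the highest summit lay nearer the 3′ end in 75 of 91 for RPL22, or 82.4% (73 to 89.6%). For RPL22L1 it was 109 of 128, or 85.2% (77.8 to 90.8%).

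**Figure D2:**
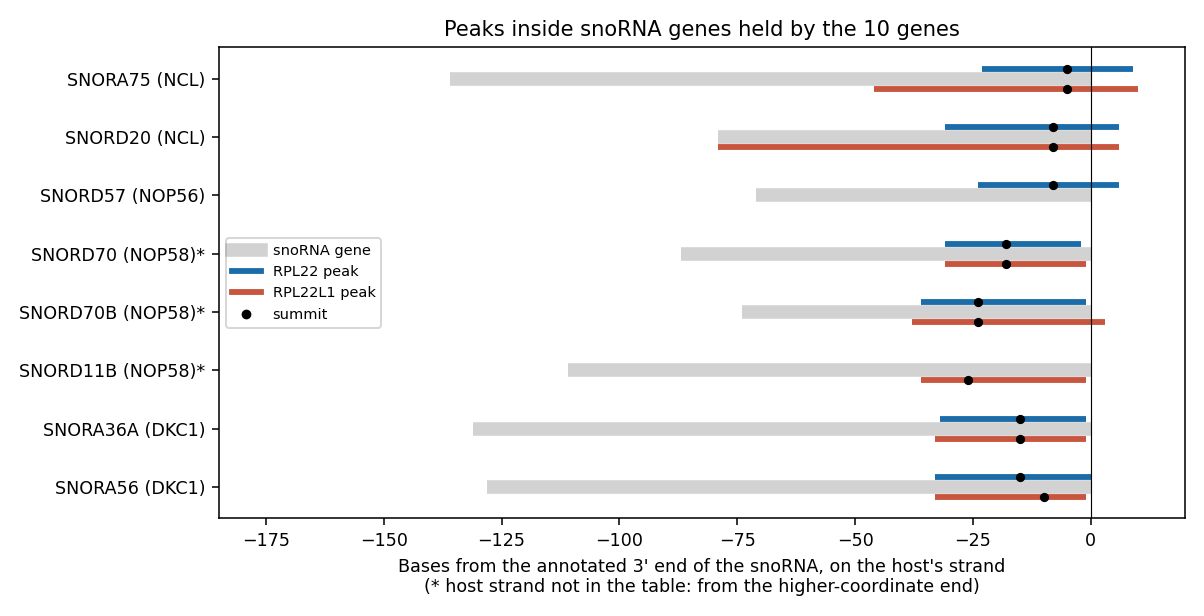
Extent of the peaks (coloured bars) and summits (black points) along the 8 snoRNA genes with a peak (grey), in bases from the annotated 3′ end on the strand of the host gene, or from the higher-coordinate end for the 3 genes of NOP58. The summits cluster within 26 bases of that end in both lists, and 6 of the 8 genes carry a peak of each list.

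Outside snoRNA genes, 6 of the 10 genes held an RPL22 summit and 8 held an RPL22L1 summit. Over all protein-coding genes 68.2% held one for RPL22 and 69.7% for RPL22L1. A summit that was not flat was found in 6 of the 10 genes in each list, against 51.5% and 45.3% of protein-coding genes. A flat peak is 30 bases wide, the smallest width, with its summit in the middle. The counts of genes with a peak were therefore near those of protein-coding genes at large. The 10 genes had a median length of 11.4 kb and protein-coding genes one of 24.1 kb. The median number of summits was 1.5 against 3 for RPL22 and 8.5 against 4 for RPL22L1.

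In all, 23 RPL22 summits and 91 RPL22L1 summits lay outside snoRNA genes. Of the former 5 were flat, or 21.7%, and of the latter 52, or 57.1%. Over all peaks in protein-coding genes the flat shares were 61.6% and 76.4%. Without flat peaks the numbers became 18 and 39. With lists of equal size, made by keeping the 154000 highest RPL22L1 peaks, 53 RPL22L1 summits were left.

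**Figure D3:**
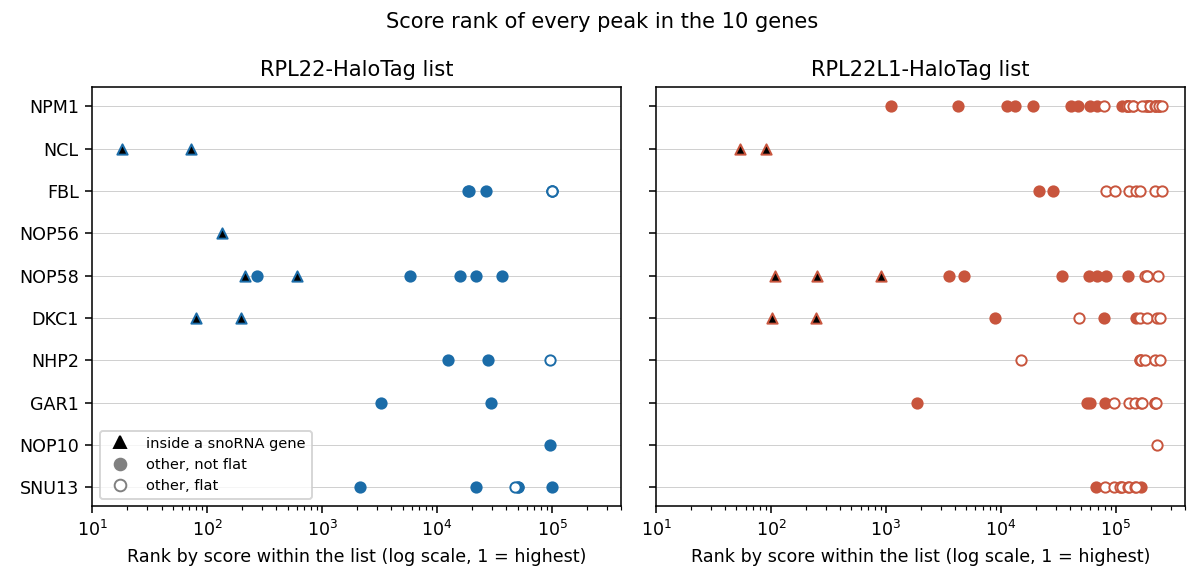
Rank by score, on a log scale, of every peak in the 10 genes within the RPL22-HaloTag list (left) and the RPL22L1-HaloTag list (right), with triangles for peaks inside snoRNA genes, filled circles for other peaks that are not flat and open circles for flat peaks. The triangles all lie at rank 904 or better, and among the circles the NOP58 peak of rank 273 for RPL22 and the NPM1 peak of rank 1105 for RPL22L1 lie furthest to the left.

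NPM1 encodes nucleophosmin, a histone and ribosome assembly chaperone of the granular part of the nucleolus. It lies on the plus strand of chromosome 5 at chr5:171387116-171410900 and is 23.8 kb long. Its 32 RPL22L1 summits came to 1.35 per kb, where protein-coding genes with a summit had a median of 0.297. Within the set NHP2 was denser, at 1.58 per kb, and GAR1 stood at 1.3 per kb. Of the 32, 19 were not flat. The gene was picked with this number known, so it is given as a description.

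The highest NPM1 peak, at chr5:171405318-171405347, scored 1421 and ranked 1105, which put it among the highest 0.434% of RPL22L1 peaks. By its highest peak NPM1 stood 495th of 13969 protein-coding genes with a summit in that list. The next peaks were at chr5:171400913-171400948 with a score of 723, at chr5:171407112-171407161 with 446, at chr5:171392978-171393008 with 408 and at chr5:171400206-171400240 with 346. All 5 were not flat by the rule used, but the highest was 30 bases wide with its summit, base 171405332, near the middle. The other 27 peaks scored from 14 to 253, and the median of all 32 was 114.5, below the list's median of 124. NPM1 joined a few high peaks to many of ordinary score.

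The NPM1 summits were spread along the gene rather than gathered at one site. The first lay 2686 bases from the gene start and the last 21538 bases from it, 2246 bases before the gene end. Gaps between neighbouring summits had a median of 380 bases and ran from 79 to 3448. The widest peak spanned 112 bases, at chr5:171390031-171390142, and 9 of the 32 were wider than 30 bases. The flat ones scored 14 to 183, and the others 25 to 1421.

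No RPL22 peak lay in NPM1 at any score. The nearest ones were flat peaks outside it, one with a score of 31 starting 1.39 kb past the gene end and one with a score of 33 lying 69.3 kb before the gene start. In lists of equal size NPM1 held 18 RPL22L1 summits, 11 of them not flat, and 0 from RPL22. As log2 of summit number plus 1, RPL22L1 over RPL22, this ratio was 4.25. Among 7819 protein-coding genes with at least 10 summits in lists of equal size, that ratio was above 1 in 6.23% and below -1 in 8.93%. NPM1 was picked with this ratio known, so these percentages do not measure how rare its value is. Since no reads are given, a peak missing from the list need not mean that reads were missing.

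Of the 10 genes, 4 reached 10 summits under that rule, NPM1 through its RPL22L1 summits alone. The ratio was 0.42 for NOP58, 0.00 for FBL and 0.65 for SNU13. Among genes with fewer summits it was also past 1 in DKC1, at 2.32, and in GAR1, at 1.42, so the rule itself sets NPM1 apart here. In the whole lists, 1335 protein-coding genes had RPL22L1 summits and no RPL22 summit, and their median number of RPL22L1 summits was 1. NPM1, with 32, had the most, and 1 other gene, PDP1, had at least as many that were not flat. NPM1 was picked with these numbers known, so its place among them is a description.

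The genes most like NPM1 were sought by the numbers of flat and other summits in both lists, 4 values per gene taken as log2 of the number plus 1. The 5 protein-coding genes at the smallest Euclidean distance were BUB3 at 1.09, RBM12B at 1.11, DR1 at 1.15, STARD4 at 1.22 and HNRNPA3 at 1.40. Each had a single RPL22 summit, not flat, and their RPL22L1 summits numbered 26, 25, 24, 22 and 19.

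NPM1 has many processed copies in the genome, between which reads can be divided. The gene table held 50 of its pseudogenes. Of these, 9 held 10 RPL22 summits and 11 held 12 RPL22L1 summits, with 3 not flat in each list and highest scores of 202 and 428. The part of read placement in the difference at NPM1 was not tested.

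Among the box C/D proteins FBL, the methyltransferase, had 6 RPL22 and 9 RPL22L1 summits in 11.9 kb of chromosome 19. In lists of equal size the numbers were 6 and 6, and without flat peaks 3 and 2. Its RPL22 scores ran from 21 to 105 and its RPL22L1 scores from 18 to 335. The 3 RPL22 peaks that were not flat all overlapped RPL22L1 peaks, and the 3 flat ones, each with a score of 21, did not.

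The FBL overlaps lay at both ends of the gene. At the 5′ end the RPL22 peak of the printed sequence, with a score of 102 and its summit 67 bases from the gene start, shared 26 bases with a flat RPL22L1 peak with a score of 115 at chr19:39846282-39846311. At the 3′ end an RPL22 peak at chr19:39834482-39834525 with a score of 84 shared 43 bases with an RPL22L1 peak at chr19:39834480-39834524 with a score of 301. Their summits were 3 bases apart and lay at 99.8% of the gene's length for RPL22. A second 3′ pair began at base 39834766 in both lists, with scores of 105 and 173 and summits 1 base apart. The RPL22L1 peak of this pair was flat. The highest FBL peak of the RPL22L1 list was elsewhere, at chr19:39840227-39840267 with a score of 335, and had no RPL22 partner.

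NOP58, a core protein that holds the guide RNA, had 5 RPL22 and 11 RPL22L1 summits outside its snoRNAs in 37.9 kb of chromosome 2, and 5 and 7 in lists of equal size. None of the 5 RPL22 peaks was flat, and 4 overlapped an RPL22L1 peak. The highest was at chr2:202300256-202300286, with a score of 4700 and rank 273. By it NOP58 stood 48th of 13667 protein-coding genes with a summit in the RPL22 list. It shared 26 bases and its summit base with an RPL22L1 peak at chr2:202300261-202300343 with a score of 791 and rank 3537, the highest of the gene in that list outside snoRNAs. No gene of the table other than NOP58 covered that summit.

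A second NOP58 site was broken up differently in the lists. RPL22 peaks at chr2:202284370-202284410, chr2:202284459-202284490 and chr2:202284585-202284643 had scores of 119, 94 and 63. The RPL22L1 list had one peak of 160 bases across the first and the second, at chr2:202284370-202284529 with a score of 681, and one at chr2:202284585-202284649 with a score of 125. The fifth RPL22 peak, at chr2:202265902-202266009 with a score of 227, lay 221 bases from the lower end of the gene and had no RPL22L1 partner. A further RPL22 peak, at chr2:202265747-202265776 with a score of 37, ran across that end with its summit 1 base outside and was left out.

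SNU13, which binds the kink-turn of box C/D and U4 RNAs, had 6 RPL22 and 11 RPL22L1 summits in 16.5 kb of chromosome 22. Without flat peaks the order turned, with 5 and 3. Its highest RPL22 peak, at chr22:41688843-41688875, had a score of 411 and rank 2129 and no RPL22L1 partner. Its highest RPL22L1 peak, at chr22:41674934-41674963, had a score of 201 and rank 66998. It shared 17 bases with an RPL22 peak with a score of 45, and their summits were 50 bases apart. A second overlap, at chr22:41680264-41680306 in the RPL22 list, had scores of 96 and 105 and shared 30 bases. The last, near the lower end of the gene at chr22:41673967-41673996, had scores of 21 and 99 and shared 12 bases. In the second and the last overlap the RPL22L1 peak was flat. By its highest peak alone SNU13 stood 1299th for RPL22 and 11111th for RPL22L1. Its other RPL22 peaks scored 21 to 96. C22orf46P overlaps the gene, and 1 summit of each list lay in both.

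Among the H/ACA proteins DKC1, the pseudouridine synthase, showed no RPL22 summit outside its snoRNAs in 14.8 kb of the X chromosome. It held 8 RPL22L1 summits there, 3 of them not flat, with scores from 23 to 501. The highest, at chrX:154777392-154777444, had rank 8813 and lay near the 3′ end of the gene, 14557 bases from its start. The flat peak of the printed sequence had a score of 34. Lists of equal size left 4 RPL22L1 summits and a log2 ratio of 2.32, on too few summits for the rule of 10.

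GAR1 had 2 RPL22 and 12 RPL22L1 summits in 9.23 kb, and 2 and 7 in lists of equal size. Both RPL22 peaks overlapped RPL22L1 peaks. The higher pair was at chr4:109819017-109819074 with a score of 315 and rank 3263, and at chr4:109818961-109819066 with a score of 1070 and rank 1877. These were the highest GAR1 peaks of both lists, shared 50 bases and had summits 1 base apart, 3520 bases from the gene start for RPL22. The pair of the printed sequence, its RPL22L1 peak flat, had scores of 72 and 89, with summits 33 and 22 bases from the gene start. No other gene of the table covered these summits.

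NHP2 had 3 RPL22 and 7 RPL22L1 summits in 4.42 kb of chromosome 5, and all 7 of the latter were flat. The order turned in lists of equal size, with 3 and 1, and without flat peaks, with 2 and 0. Its highest RPL22 peak, at chr5:178149562-178149619 with a score of 141, lay where NHP2 and RMND5B overlap and can belong to either. Its highest RPL22L1 peak, at chr5:178153637-178153666, had a score of 388. The 1 overlap was of 6 bases, between an RPL22 peak at chr5:178153751-178153780 with a score of 80 and an RPL22L1 peak at chr5:178153775-178153804 with a score of 91.

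NOP10, the shortest gene of the set at 1.42 kb on chromosome 15, had 1 summit in each list. The RPL22 peak at chr15:34341923-34342035 was 113 bases wide with a score of 30, and the RPL22L1 peak at chr15:34342005-34342034 was flat with a score of 35. The smaller lay wholly within the larger, and the summits were 89 bases apart. Both scores were below the medians of their lists, 33 and 124.

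**Figure D4:**
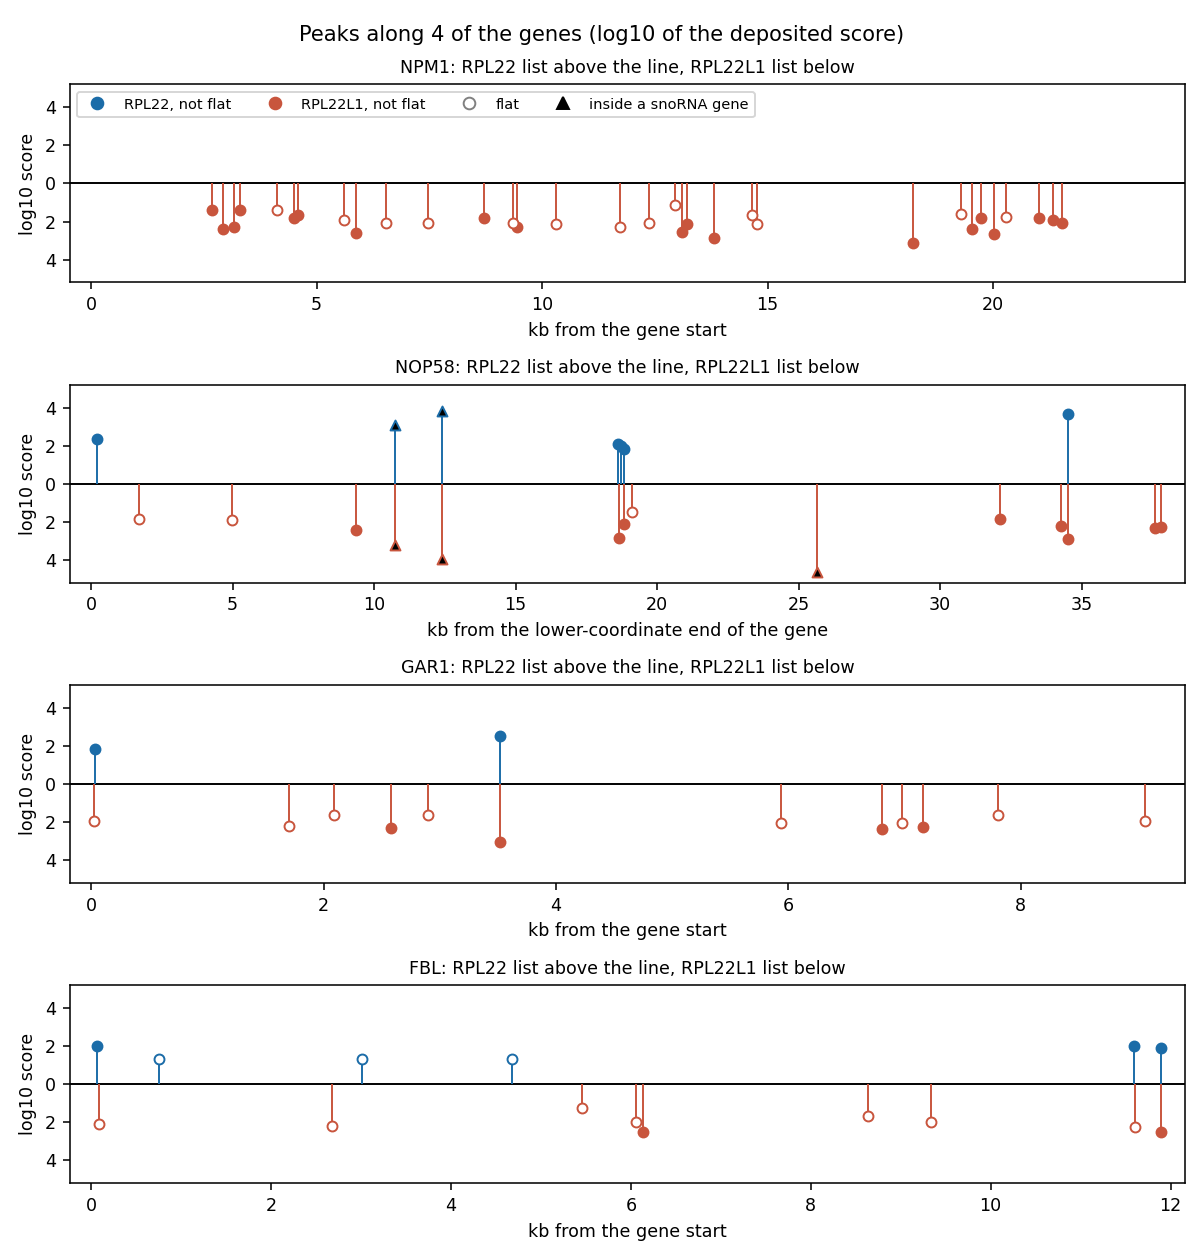
Peaks along NPM1, NOP58, GAR1 and FBL by distance in kb from the gene start (for NOP58 from the lower-coordinate end), with log10 of the deposited score upwards for the RPL22 list and downwards for the RPL22L1 list; filled circles are peaks that are not flat, open circles flat peaks and triangles peaks inside snoRNA genes. The upper side of NPM1 is empty, while in NOP58, GAR1 and FBL peaks of the lists face each other at 3, 2 and 3 places outside snoRNA genes.

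Overlap between the lists was counted over the peaks outside snoRNA genes, with 1 shared base as the least. Of the 23 RPL22 peaks 14 overlapped an RPL22L1 peak, or 60.9% (38.5 to 80.3%). Over all peaks in protein-coding genes it was 19%. Seen from RPL22L1, 13 of 91 peaks had an RPL22 partner, a share of 14.3% (7.83 to 23.2%) beside 11.4% over protein-coding genes. Without the peaks of NPM1, none of which overlapped, it was 13 of 59, or 22% (12.3 to 34.7%).

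Overlap was also counted by peak shape, with no test between shapes. All 14 overlapping RPL22 peaks were among the 18 that were not flat, or 77.8% (52.4 to 93.6%), where such peaks of protein-coding genes gave 39.7%. None of the 5 flat ones overlapped, or 0% (0 to 52.2%), against 6.12%. In the RPL22L1 list the shares were 6 of 39 peaks that were not flat, or 15.4% (5.86 to 30.5%), and 7 of 52 flat ones, or 13.5% (5.59 to 25.8%). Over protein-coding genes they were 26.4% and 6.79%. NPM1, which has no RPL22 peak to overlap, gave 19 of the 39 and 13 of the 52. Its peaks lower every RPL22L1 share in this paragraph. With flat peaks taken out of both lists, 7 of 18 RPL22 peaks overlapped, or 38.9%, against 25.1%, and 15.4% of RPL22L1 peaks did, against 24.3%. With at least 50% of both peaks shared, 5 of 23 RPL22 peaks did, or 21.7%, against 10.4%, and 5 of 91 RPL22L1 peaks, or 5.49%, against 6.2%. The genes were picked with results of these lists known, so these shares are a description. An RPL22 peak with an RPL22L1 partner was found in 6 of the 10 genes and in 39.7% of all protein-coding genes.

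Along the 8 genes of known strand, 3 of 12 RPL22 summits and 5 of 69 RPL22L1 summits lay within 150 bases of the gene start, or 25% and 7.25%. Over all protein-coding genes of known strand it was 1.28% and 0.539%, with gene length not matched. The 12 RPL22 summits came from FBL, NHP2, GAR1 and NOP10 alone, with 6, 3, 2 and 1. The summits near a start were in FBL, GAR1 and NHP2 for RPL22 and in these genes and DKC1 for RPL22L1. In each of FBL, GAR1 and NHP2 a peak of one list overlapped a peak of the other there. The first 10% of the gene's length held 5 RPL22 and 6 RPL22L1 summits, or 41.7% and 8.7%, against 12.1% and 10.1% over protein-coding genes. The last 10% held 3 and 8, or 25% and 11.6%, against 15.8% and 17.6%. NPM1 gave 32 of the 69 RPL22L1 summits, all but the last between 11.3% and 89.7% of its length. It thereby lowers the RPL22L1 shares at both ends of the genes.

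Other genes of the pathway and of the nucleolus, 23 in all, gave a broader view. They were 15 factors of snoRNP assembly and maturation, 2 other nucleophosmins and 6 other nucleolar proteins. Of the 23, 21 held an RPL22 summit outside small RNA genes and 22 an RPL22L1 summit, where 68.2% and 69.7% of all protein-coding genes did. An overlap between lists was found in 18, where 39.7% of all protein-coding genes had one. Median summit numbers were 7 and 13, against 3 and 4 over all protein-coding genes, for genes that are not of one length.

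Among the 15 assembly factors, 14 held a summit in each list and ZNHIT3 held none in either. The highest peaks in the RPL22 list were in NAF1, which loads DKC1 onto nascent H/ACA RNA, with a score of 969, and in RUVBL1, an ATPase of the box C/D assembly complex, with 536. The same genes led the RPL22L1 list, with 1376 and 1435. NPM3 held 3 summits in each list and NPM2 held 1 and 3. Among the other nucleolar genes, DDX21, an RNA helicase of ribosomal RNA synthesis, had 6 and 32 summits, with 5 RPL22 peaks overlapping. DDX21 thus had as many RPL22L1 summits as NPM1, but with RPL22 peaks beside them. GNL3 had 0 and 1.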

How the data were processed

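GoldCLIP-seq peak lists of 2 HCT116 libraries were used, 1 per group by genotype label. The submitters' processing notes name cutadapt 4.8, STAR 2.7.10a, UMI-tools 1.1.5, MACS3 3.0.0a6 and hg38, without roles or parameters. The control, the treatment of reads with several matches and the depth are not given in the sources used here. The authors deposited a whole-number score and a summit offset per peak, with no strand. Scores rank peaks within a list only.

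Summits, counted from 1, were set against RefSeq gene bounds of GRCh38.p14. Summits in snoRNA or other small RNA genes were kept apart. The members and lists were chosen with earlier results of these data known. The text names all 10 members, and in each the highest peak of each list, overlapping pairs and peaks in snoRNAs. Other NPM1 and NOP58 peaks, PDP1, and NPM2, NPM3, GNL3 and ZNHIT3 among pathway and nucleolar genes were chosen after their values were seen. Alternatives covered flat peaks, score, list size, gene bounds, small RNA genes, overlap and summit number. Code, tested on simulated data, ran in Python 3.11.15 with scipy 1.17.1, numpy 2.4.6 and pandas 2.3.3, and figures were drawn by matplotlib 3.10.9. The blood cell marker list is not reported here.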

Additional observations from a re-analysis of the deposited data

How the results depend on the processing

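Of 34 alternative values for the totals over the 10 genes, 29 stayed within 1.5-fold or within their interval and 5 fell further. The 91 RPL22L1 summits became 39 without flat peaks, 40 when peaks under their list's median score were dropped, and 53 in lists of equal size, in each case because peaks are removed. When at least 50% of both peaks had to be shared, 21.7% of RPL22 peaks and 5.49% of RPL22L1 peaks overlapped, a stricter rule by construction. Over all peaks in protein-coding genes it gave 10.4% and 6.2%. Lists of equal size leave the RPL22 list as it is, so its summit counts cannot move there, while its overlap went from 60.9% to 47.8%. Over all RPL22 peaks in protein-coding genes the overlap also fell, from 19% to 14.9%. The RPL22L1 overlap went from 14.3% to 18.9%, and from 11.4% to 14.8% over protein-coding genes. At or above the median scores 47.1% of RPL22 and 17.5% of RPL22L1 peaks overlapped, against 19.1% and 14.2%. The peaks of NPM1, none of which overlapped, count in all these RPL22L1 shares of the 10 genes. Of 150 values for single genes, 102 stayed, 44 fell and 4 rose by more. The order of the lists turned for 3 genes: in NHP2 from 3 and 7 summits to 3 and 1 in lists of equal size, 2 and 0 without flat peaks and 2 and 1 at or above the median scores, and without flat peaks also in FBL and SNU13, to 3 and 2 and to 5 and 3. For NPM1 the log2 ratio ran from 3.91 to 5.04. No paired analysis was possible because each group has 1 library. Depth is unknown, so the scores of separate libraries cannot be set side by side as levels.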
